A study of Mus musculus with 30 samples.

Results

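RAD21, the kleisin subunit that closes the cohesin ring, was mapped by chromatin immunoprecipitation and sequencing in 4 libraries, 2 from cells held at 4% O2 and 2 from cells held at 20% O2. They are 4 of the 30 samples of a study that used antibodies against 6 chromatin and polymerase targets in 24 libraries, with 6 inputs. All 4 libraries came from NOS1+ N1E115 cells, a mouse neuroblastoma line, after 3 days at 4% O2 (hypoxia) or 20% O2 (normoxia). NOS1 is the neuronal nitric oxide synthase; the sources used here do not say what the plus sign stands for. Both O2 levels share the one line and the NOS1+ state, so the comparison is of O2 levels within 1 cell line. The members were the peaks of the 4 RAD21 lists on chromosomes 1 to 19, X and Y, which numbered 39012 and 71225 at 4% O2, against 26908 and 73328 at 20% O2, in rounds 1 and 2. A further 2 and 8 peaks at 4% O2 and 0 and 20 peaks at 20% O2 lay on other sequences and were left out.

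The replicate number marks a round: the RAD21 libraries of 1 round share a flow cell and those of the other round another flow cell, per the file headers. The labels do not state separate cultures for the libraries of a level, so each p-value reflects only how far these libraries differ, a spread that may be technical. The labelled neuroblast identity was checked on H3K9ac, a mark of active promoters. It was called at the ends of 22 of 26 sympathetic and neuroblast genes in each of the 4 H3K9ac libraries and of 0 of 9 endothelial genes in any. It was called at 2 or 3 of 8 astrocyte genes, 2 to 5 of 11 oligodendrocyte and Schwann genes, 3 of 12 macrophage genes and 2 or 3 of 10 fibroblast genes.

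Cohesin extrudes loops of DNA and is held where it meets CTCF, a zinc finger protein that binds a directional sequence motif. Loop anchors therefore carry both proteins, and cohesin also loads and travels through active genes and enhancers, where CTCF may be absent. Its summits tend to lie to one side of the CTCF motif, because only one end of CTCF contacts cohesin. H3K9ac marks active promoters and enhancers, and RNA polymerase II (POLR2) marks transcribed genes.

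Promoter sequences show what a RAD21 site with a CTCF motif looks like here. Below are the 5 promoters with the highest mean RAD21 score rank among those with 1 exact match to the CTCF core motif before the gene start. They were read from RefSeq (GRCm38.p6, the same build as mm10) and are written in the direction of the motif, with the 12 bases of the motif in capitals. They lie at chr7:98481179-98481238 (plus strand), chr10:94623760-94623819 (plus), chr5:116123507-116123566 (plus), chr11:119190594-119190653 (minus) and chr15:80225381-80225440 (minus).
Gm38588: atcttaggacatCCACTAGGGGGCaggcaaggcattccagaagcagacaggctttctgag
Gm32898: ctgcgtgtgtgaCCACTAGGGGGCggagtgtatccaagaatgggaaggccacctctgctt
C330018A13Rik: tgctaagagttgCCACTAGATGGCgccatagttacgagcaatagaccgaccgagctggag
Gm11753: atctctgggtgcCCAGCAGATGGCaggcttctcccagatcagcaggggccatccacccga
Gm46521: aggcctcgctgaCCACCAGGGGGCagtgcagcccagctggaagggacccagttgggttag

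The next 3 sequences are the 250 bases before the start of genes whose RAD21 region differed between O2 levels, written in the direction of the gene, with an exact motif in capitals. The region of 2410004P03Rik was called at 20% O2 only, that of Lysmd1 at 4% O2 only, and that of Rpl11 was called in all 4 libraries with higher ranks at 4% O2. They lie at chr12:17011728-17011977 (minus strand), chr3:95133838-95134087 (plus) and chr4:136053394-136053643 (minus).
2410004P03Rik: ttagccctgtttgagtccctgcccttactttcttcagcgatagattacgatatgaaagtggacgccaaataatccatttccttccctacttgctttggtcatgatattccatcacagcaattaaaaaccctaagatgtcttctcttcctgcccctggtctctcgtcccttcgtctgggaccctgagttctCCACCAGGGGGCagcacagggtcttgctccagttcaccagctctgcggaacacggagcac
Lysmd1: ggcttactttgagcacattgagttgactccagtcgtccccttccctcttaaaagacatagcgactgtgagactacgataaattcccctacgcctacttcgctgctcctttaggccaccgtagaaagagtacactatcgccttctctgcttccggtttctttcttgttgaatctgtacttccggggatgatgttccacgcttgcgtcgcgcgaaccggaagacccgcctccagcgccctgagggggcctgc
Rpl11: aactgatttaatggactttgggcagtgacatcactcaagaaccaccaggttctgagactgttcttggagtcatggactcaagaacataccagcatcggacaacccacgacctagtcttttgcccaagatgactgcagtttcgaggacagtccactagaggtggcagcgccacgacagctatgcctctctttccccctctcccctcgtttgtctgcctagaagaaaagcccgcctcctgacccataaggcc

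Both strands were searched for the 12-base CTCF core motif, and no other motif was searched. The exact motif stood in 105 of 1888 promoters that overlapped a RAD21 region called in all 4 libraries (5.56%). It stood in 183 of all 32817 promoter windows of the same length (0.558%) and in 33 of 26422 without RAD21 (0.125%). Promoters with a region called at 4% O2 only held it in 1 of 90 cases (1.11%), and those with a region called at 20% O2 only in 2 of 23 (8.7%), of which 2410004P03Rik is one. With 1 mismatch allowed the shares were 3.33% for 4% O2 only, 17.4% for 20% O2 only, 20.4% for all 4 libraries and 4.33% for all promoters. The windows end 50 bases after the start of the gene, and a match is a description of the letters only.

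Summits are given for round 2, and their medians lay on the same side of the motif at both O2 levels. In the direction of the motif, the RAD21 summit stood a median of 17.5 bp past the motif centre at 4% O2 (117 promoter motifs with a summit within 150 bp) and 16.5 bp at 20% O2 (126 motifs). CTCF summits stood a median of 5.5 bp past it at 4% O2 and 8.5 bp at 20% O2. RAD21 summits lay past the centre at 70.1% of these motifs at 4% O2 and 80.2% at 20% O2. For CTCF summits the shares were 57.9% and 66.7%, and whether the levels differ in this was not tested. Where both summits were found, RAD21 lay further along than CTCF at 69 of 109 motifs at 4% O2 and at 84 of 124 at 20% O2. At Gm38588 the RAD21 summit was 31.5 bp past the motif at 4% O2 and 12.5 bp at 20% O2. Across all regions called in all 4 libraries, the summit at 4% O2 lay a median of 19 bp from the nearest summit at 20% O2, and 73.5% of 27163 summits lay within 50 bp. The differences described next are of calls and scores.

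**Figure D1:**
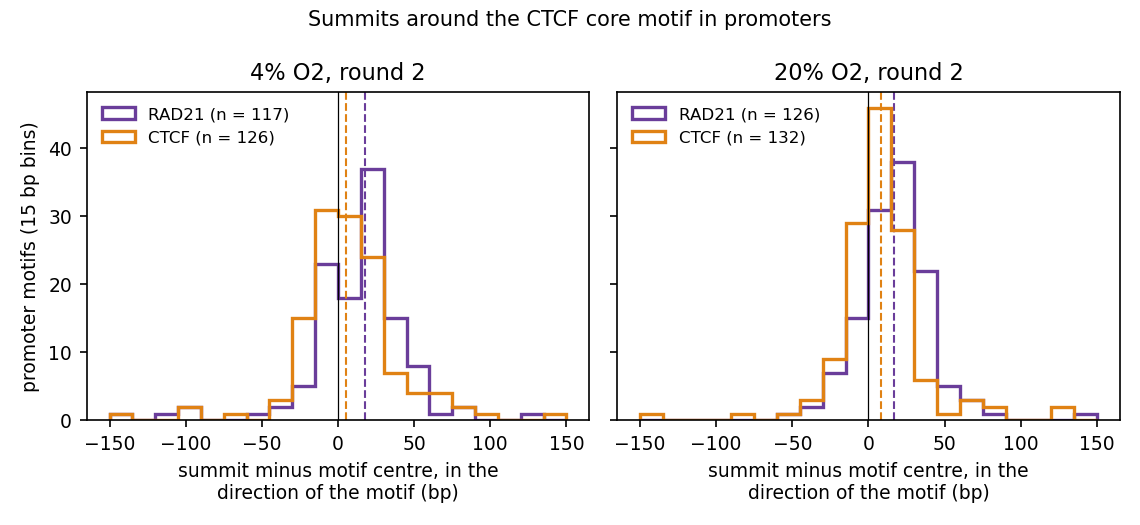
Position of RAD21 and CTCF summits relative to exact CTCF core motifs in promoters, in round 2 at 4% O2 (left) and 20% O2 (right). The x axis is the distance in bp in the direction of the motif, the y axis the number of motifs per 15 bp, and dashed lines mark medians of 17.5 bp (RAD21) and 5.5 bp (CTCF) at 4% O2 and of 16.5 and 8.5 bp at 20% O2.

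The number of RAD21 peaks did not separate the O2 levels. Lists averaged 55118 ± 22778 peaks at 4% O2 and 50118 ± 32824 at 20% O2 (SD, n = 2 each, exact permutation p = 1.0). The 4% O2 list was longer in round 1, by a ratio of 1.45, and shorter in round 2, by 0.97. The round 1 list at 20% O2 stood apart as the shortest and most selective: 85.9% of its peaks lay in regions called in all 4 libraries. That share was 61.0% and 38.1% in the 4% O2 lists and 37.8% in the 20% O2 list of round 2. Its median score was 25.93, against 9.78 in the other 20% O2 list and 20.99 and 8.83 in the 4% O2 lists. These scores are the −log10 q-values of the authors' peak caller, used here only to rank peaks. Overlap in base pairs (the Jaccard index, shared over combined length) was 0.456 between the 4% O2 lists and 0.325 between the 20% O2 lists. It was 0.462 and 0.517 between levels within rounds 1 and 2, and 0.485 and 0.295 for the pairs that differ in both, so libraries of a level were not more alike than libraries of different levels.

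Peaks of the 4 lists merged into 88921 regions, of which 21298 were called in all 4 libraries. RAD21 was called in both 4% O2 libraries and neither 20% O2 library at 962 regions, 1.08% of all regions, and in both 20% O2 libraries only at 985, 1.11%. The regions of 4% O2 only ranked low in both of their lists, while those of 20% O2 only ranked low in round 1 and at the middle of the list in round 2. Those of 4% O2 had a median percentile of 15.6 and 34.8 within their own lists, and those of 20% O2 one of 20.0 and 50.1, in rounds 1 and 2. The strongest of either kind reached the percentiles 64.5 and 78.1 at 4% O2, against 66.4 and 77.7 at 20% O2.

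The regions of the 2 kinds differed in what else bound there. H3K9ac was called in at least 1 of its 4 libraries at 686 of the 962 regions of 4% O2 (71.3%), at 34 of the 985 regions of 20% O2 (3.45%) and at 48.5% of the regions called in all 4 RAD21 libraries. POLR2 islands overlapped 66.4%, 8.12% and 41.4% of them in the same order. CTCF was called in at least 1 library at 57.6% of the regions of 4% O2, 97.9% of those of 20% O2 and 99.6% of the shared ones. Over all 88921 regions the shares were 51.4% for H3K9ac, 50.7% for POLR2 and 69.2% for CTCF. Each region of 20% O2 only lies in the 20% O2 list of round 1, where 98.46% of peaks overlapped CTCF of any library. The CTCF difference shrank with score: with peaks of a −log10 q of at least 10, CTCF was at 91.3% of 426 regions of 4% O2 and 99.5% of 849 regions of 20% O2. The H3K9ac difference remained large there, with 60.1% of the regions of 4% O2 and 3.18% of those of 20% O2. H3K9ac without any CTCF call was found at 362 regions of 4% O2 (37.6%) and 14 of 20% O2 (1.42%).

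The acetylation at these regions was mostly not itself called at 1 level. At the 962 regions of 4% O2, H3K9ac was called at 61.6% and 63.8% in the 4% O2 libraries and at 60.3% and 59.6% in the 20% O2 libraries, in rounds 1 and 2. H3K9ac was called in both 4% O2 libraries only at 12 of them and in both 20% O2 libraries only at 3. Over all 88921 regions these counts were 564 and 436. CTCF at the 985 regions of 20% O2 was called at 96.5% and 52.8% in the 4% O2 libraries and at 96.4% and 93.6% in the 20% O2 libraries. CTCF calls there were thus lower in the 4% O2 library of round 2 and alike in round 1. RAD21, H3K9ac and POLR2 lists of a level and round were set against the same input, which these overlaps share. In round 2 the CTCF lists shared that input too.

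**Figure D2:**
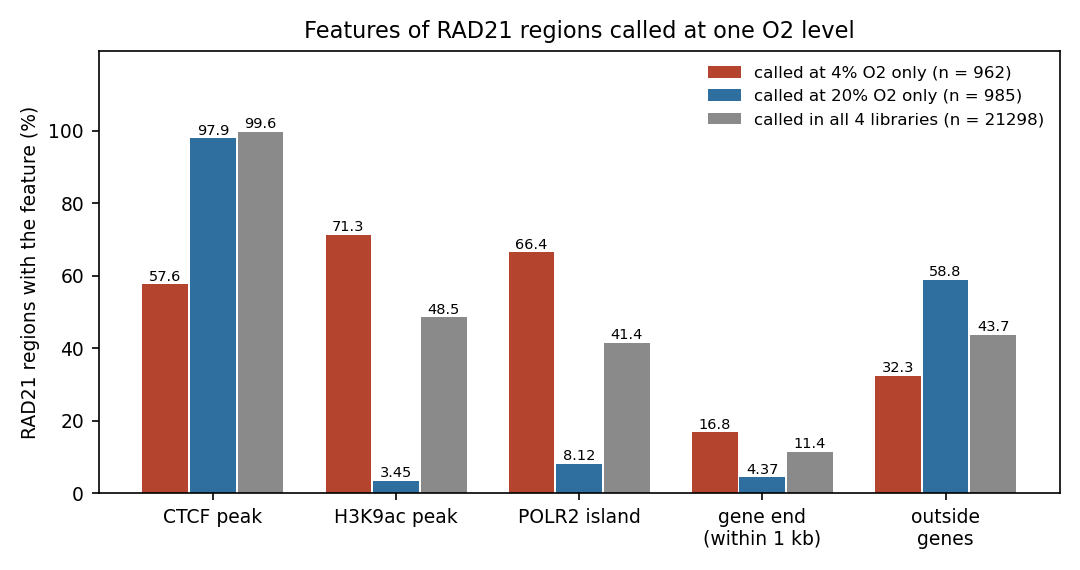
Share of RAD21 regions (y axis, %) that overlap CTCF, H3K9ac or POLR2 in any library, lie at a gene end or lie outside genes, for regions called at 4% O2 only, at 20% O2 only and in all 4 libraries. H3K9ac stands at 71.3%, 3.45% and 48.5% and CTCF at 57.6%, 97.9% and 99.6%.

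Position followed the same division. A gene end, the start or end of a protein-coding gene with 1 kb to each side, held 162 of the regions of 4% O2 (16.8%), 43 of those of 20% O2 (4.37%) and 11.4% of the shared regions. Outside genes lay 32.3% of the regions of 4% O2, 58.8% of those of 20% O2 and 43.7% of the shared ones. Chromosome X held 9 regions of 4% O2 and 51 of 20% O2, or 0.936% and 5.18%, beside 1.89% of the shared regions. Over all regions, 12.9% lay at gene ends, 42.1% outside genes and 1.48% on chromosome X. Within 500 kb to either side, the median region had 11 genes at 4% O2, 7 at 20% O2 and 11 among the shared regions.

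Within rounds the directions held and the sizes differed. In round 1, H3K9ac was at 69.8% of 15764 regions called at 4% O2 only and 11.9% of 2899 called at 20% O2 only. In round 2 it was at 53.0% of 21662 called at 4% O2 only and 41.8% of 23353 called at 20% O2 only. CTCF was at 67.2% of the regions of 4% O2 and 93.6% of those of 20% O2 in round 1, and at 51.8% and 56.2% of the same kinds in round 2. Gene ends held 14.5% of the regions of 4% O2 and 8.28% of those of 20% O2 in round 1, and 15.1% and 10% of the same kinds in round 2. When the 20% O2 library of round 1 was left out, H3K9ac was at 68.3% of 1035 regions of 4% O2 and 41.4% of 19862 of 20% O2, and CTCF at 59.8% of those of 4% O2 and 54.3% of those of 20% O2, so the CTCF order turned. The sizes of these contrasts thus rest largely on that library, whose list was the shortest.

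Shares of whole peak lists gave the same order for acetylation without any choice of regions. H3K9ac of any library overlapped 55.01% and 54.3% of peaks at 4% O2, against 40.77% and 51.21% at 20% O2, so the levels did not overlap (54.66 ± 0.5% and 45.99 ± 7.38%, SD, n = 2 each, exact permutation p = 0.333). H3K9ac of the same level and round overlapped 42.71% and 48.92% of peaks at 4% O2, against 31.11% and 43.19% at 20% O2, where the levels overlapped (exact permutation p = 0.667). For H3K9ac of any library, with each list cut to its 26908 highest scores the shares were 51.38% and 54.99% at 4% O2, against 40.77% and 49.33% at 20% O2. Gene ends held 12.51% and 13.86% of peaks at 4% O2, against 10.86% and 12.45% at 20% O2 (13.19 ± 0.96% and 11.66 ± 1.13%, exact permutation p = 0.333). Chromosome X held 1.53% and 1.2% at 4% O2, against 2.15% and 1.61% at 20% O2. The smallest p that the exact permutation test of 2 libraries against 2 can give is 0.333, so none of these comparisons could pass 0.05. CTCF of the same level and round was at 82.03% and 67.88% of peaks at 4% O2, against 96.65% and 67.75% at 20% O2 (exact permutation p = 1.0). In lists of equal length it was at 95.69% and 95.76% at 4% O2, against 96.65% and 98.11% at 20% O2.

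Where RAD21 was called in all 4 libraries, its strength was compared by rank. The highest score in each of the 21298 regions was ranked within each library, from 0 for the weakest to 100 for the strongest, so only the order of sites is compared. Among the 3715 regions of mean rank 80 to 100, 13.5% had both 4% O2 ranks above both 20% O2 ranks and 14.9% had them below. The 5 of highest mean rank, chosen for being high in all 4 libraries, are given as a description. The region with the highest mean rank, 7.42 kb from Enah, an actin regulator, ranked at 99.9 and 100 at 4% O2, against 100 and 100 at 20% O2. The other 4 of the top 5 lay 38.9 kb from Blcap, 56.1 kb from Cartpt, which encodes a neuropeptide, 18.5 kb from Rpn1, an oligosaccharyltransferase subunit, and 3.31 kb from Nek2, a centrosomal kinase. None had a rank under 99.8, and CTCF and H3K9ac were called in all 4 of their libraries at each of the 5.

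Both 4% O2 ranks lay above both 20% O2 ranks at 3487 regions, 16.4% of those compared, and below them at 3790, 17.8%. These shares are the background for the classes that follow. Gene ends held regions that ranked higher at 4% O2: of 2419, 558 were higher (23.1%) and 203 lower (8.39%). Their median ranks were 48.8 and 56.0 at 4% O2, against 40.4 and 49.6 at 20% O2, so the levels overlapped across rounds while each round had the 4% O2 library above, by medians of 3.42 and 4.51 percentile points. The median of the difference averaged over both rounds was 4.48 points. It was 1.78 without the 4% O2 library of round 2, 2.06 without the 20% O2 library of round 1 and 7.54 without the 4% O2 library of round 1. Away from gene ends the difference turned step by step. Regions 1 to 10 kb away had median differences of 0.89 and 1.0 points in rounds 1 and 2, those at 10 to 50 kb -0.85 and -0.81, those at 50 to 200 kb -2.7 and -3.24, and the 750 over 200 kb away -5.94 and -5.68. Of the last, 8.27% were higher and 31.7% lower, and their median ranks of 38.2 and 32.8 at 4% O2 lay below 49.7 and 41.3 at 20% O2 without overlap.

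Gene-rich surroundings showed the same gradient. Regions with over 30 protein-coding genes in the surrounding 1 Mb had median differences of 5.59 and 5.13 points, with 26.6% higher and 7.4% lower. Those with 16 to 30 genes had 2.31 and 2.54, those with 6 to 15 had -0.93 and -0.92, and those with 5 or fewer had -4.4 and -4.28, with 9.02% higher and 26% lower. The 2 rounds gave nearly the same medians here, although their lists differ in length. Leaving out 1 library moved the gene-richest median, 5.93 over both rounds, to 2.47 without the 20% O2 library of round 1 and 3.4 without the 4% O2 library of round 2. It moved the gene-poorest median, -4.18, to -1.76 and -2.05 without the same libraries and to -6.78 without the 20% O2 library of round 2. Among regions with no H3K9ac in any library, the differences still ran from -10.5 and -5.99 points in the gene-poorest class to -0.64 and 4.65 in the gene-richest. CTCF regions called in all 4 CTCF libraries had differences of 0.96 and 4.4 points in the gene-richest class and -1.31 and -4.45 in the gene-poorest, and H3K9ac regions had 1.45 and 0.67 and then -2.85 and -1.7. Whether RAD21 differs from CTCF in this was not tested.

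**Figure D3:**
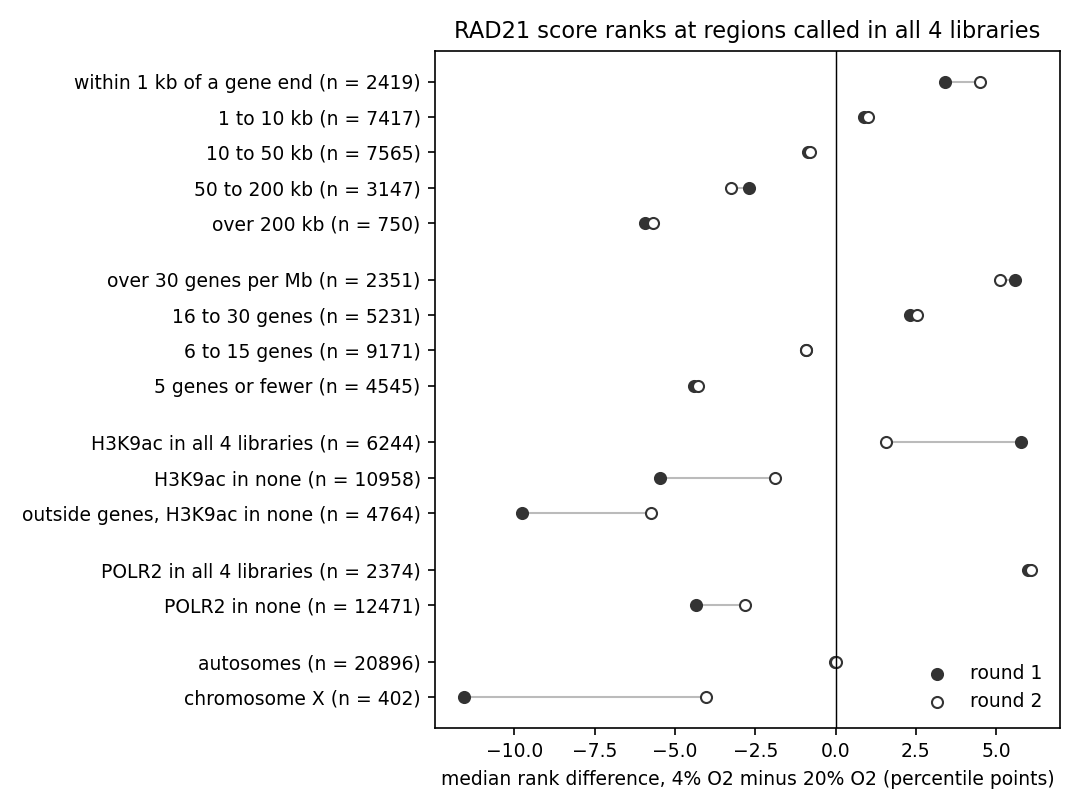
Median difference in RAD21 score rank (x axis, 4% O2 minus 20% O2, percentile points) for classes of the 21298 regions called in all 4 libraries, with round 1 as filled and round 2 as open circles. Medians fall from 3.42 and 4.51 within 1 kb of gene ends to -5.94 and -5.68 beyond 200 kb, and chromosome X stands at -11.58 and -4.04.

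Acetylated and transcribed sites ranked higher at 4% O2 and unmarked distal sites lower. The 6244 regions with H3K9ac in all 4 libraries had median ranks of 67.8 and 70.7 at 4% O2, against 57.0 and 68.4 at 20% O2, with differences of 5.79 and 1.56 points and 22.8% higher and 7.53% lower. The levels overlapped across rounds, and the 20% O2 library of round 1 was the one that lay apart. Without it the median difference was 1.06 points, against 4.23 over all 4 libraries, and it was 7.14 without the 20% O2 library of round 2. The 2374 regions with POLR2 in all 4 libraries had differences of 5.99 and 6.1 points, 27.6% higher and 5.27% lower. The POLR2 list of 20% O2 in round 1 largely set this class. It overlapped 15.9% of all RAD21 regions, against 36.9% and 41.2% at 4% O2 and 43.9% in the other 20% O2 list. Leaving out single libraries was not run for the POLR2 class. The 4764 regions outside genes with no H3K9ac had median ranks of 33.7 and 31 at 4% O2, against 47.3 and 38.8 at 20% O2, without overlap between levels, and 6.3% were higher while 33.2% were lower. Their median difference of -7.51 was -4.98 without the 20% O2 library of round 1. CTCF did not divide the shared regions, since it was called in all 4 of its libraries at 98.5% of the higher and 98.5% of the lower regions. The CTCF score rank moved beside RAD21 there: its median difference was 2.04 and 4.37 points at regions where RAD21 was higher and -1.53 and -9.1 where it was lower.

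Chromosome X had the lowest median difference in each round among the chromosomes with more than 1 shared region. Its 402 regions had median ranks of 28.7 and 32.6 at 4% O2, against 44.3 and 35.8 at 20% O2, with 7.71% higher and 34.1% lower. The median difference of -8.2 over both rounds was -5.29 without the 20% O2 library of round 1. Among the 268 of them with no H3K9ac the differences were -15.53 and -5.3 points, beside -5.24 and -1.8 at the 10690 such regions on autosomes. CTCF regions on chromosome X had differences of 0.18 and -5.48 points, and H3K9ac regions there had -5.65 and -4.22. On autosomes, chromosome 11 had the highest share of regions ranked higher at 4% O2, 25.8% with 11.7% lower, and chromosome 1 had 9.8% higher and 27.6% lower.

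Differences ran in stretches along chromosomes that recurred in both rounds. In 183 windows of 10 Mb with at least 50 shared regions, the median difference lay above 0 in both rounds for 66, below 0 in both for 77 and on opposite sides for 40. Across windows the rounds had a Pearson r of 0.69 and a Spearman rho of 0.71, given as a description, since all windows share the same 4 libraries. The window at 0 to 10 Mb of chromosome 19, with 224 genes, had medians of 8.32 and 9.48 points, and 52 of its 131 regions were higher and 5 lower. The window at 50 to 60 Mb of chromosome 6, with 96 genes, had medians of -7.74 and -10.2, with 2 of 79 higher and 29 lower. The window at 10 to 20 Mb of chromosome 12, which holds 2410004P03Rik, had 0 of 56 higher and 29 lower.

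**Figure D4:**
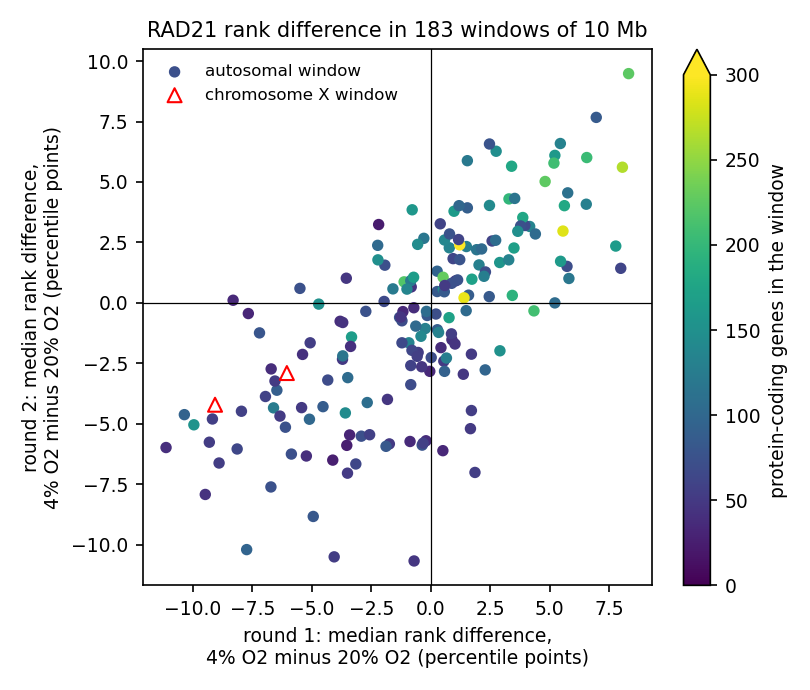
Median RAD21 rank difference (4% O2 minus 20% O2, percentile points) in 183 windows of 10 Mb, round 1 on the x axis and round 2 on the y axis, coloured by the number of protein-coding genes. Most windows lie in the quadrants where the rounds share a sign, 66 above and 77 below 0, and both chromosome X windows lie below 0 in both rounds.

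Single regions give the scale of these differences. Among all shared regions, the largest mean difference upward was at chr15:57965353-57966003, inside Tbc1d31, a centrosomal gene, where ranks were 72.3 and 48.6 at 4% O2, against 11.8 and 4.5 at 20% O2. The region inside Rab11fip3, an effector of recycling endosomes, at chr17:26009459-26010342 ranked at 57.7 and 83.0 at 4% O2 against 9.7 and 28.4 at 20% O2. The next 3 lay inside Rpn2, 6.21 kb from Grb2, an adaptor of receptor signalling, and inside Cnbd2. All 5 held CTCF in all 4 libraries, and 4 of the 5 held no H3K9ac. The largest difference downward was at chr6:50679127-50679588, 24.9 kb from Npvf, a neuropeptide gene, with ranks of 8.1 and 6.8 at 4% O2, against 78.7 and 58.3 at 20% O2. A second region of the same stretch, chr6:50536478-50537034, 25.8 kb from Cycs, which encodes cytochrome c, had 7.3 and 29.7 at 4% O2 against 83.8 and 51.2 at 20% O2. The other 3 lay inside Clec4g, 22.7 kb from Raet1e and inside Gng12, and none of the 5 held H3K9ac or POLR2 in any library.

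At gene ends, the 5 largest upward differences included regions with acetylation and polymerase in every library. At Rpl11, whose product belongs to the large ribosomal subunit and restrains MDM2, the region chr4:136053210-136054339 ranked at 61.2 and 82.6 at 4% O2, against 11.4 and 50 at 20% O2. The bases of its promoter printed above hold no exact motif. At Slc9a8, a sodium and proton exchanger, ranks were 50.2 and 55.3 at 4% O2 against 4.7 and 17.1 at 20% O2, and at Emsy, a partner of BRCA2, 40.8 and 62.9 at 4% O2 against 0.5 and 20.2 at 20% O2. At Cse1l, which returns importin alpha to the cytoplasm, they were 64.4 and 63.4 at 4% O2 against 6.0 and 28.6 at 20% O2, with no H3K9ac called. The region shared by Cenpt, a kinetochore gene, and Thap11, a transcription factor gene, had 67.1 and 82.3 at 4% O2 against 7.3 and 59.8 at 20% O2. Levels did not overlap at any of these 5, which is how they were chosen.

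Downward at gene ends, the region of Plxna2, a semaphorin co-receptor, at chr1:194816791-194817239 ranked at 29.3 and 14.6 at 4% O2, against 76.3 and 42.6 at 20% O2. At Nrtn, a ligand of the GDNF family, ranks were 27.9 and 24.1 at 4% O2 against 59.1 and 55.1 at 20% O2. Sorcs2, a proneurotrophin receptor, had 42.8 and 29.2 at 4% O2 against 69.9 and 59 at 20% O2. The region of Apoa2, an apolipoprotein gene, had 37.7 and 58.8 at 4% O2 against 79.2 and 74.8 at 20% O2, with H3K9ac in all 4 libraries. These regions were also chosen for their difference.

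By gene, RAD21 was called at a gene end in all 4 libraries for 2581 of 21887 protein-coding genes, 11.8%. It was called in both 4% O2 libraries only for 102 genes, 0.466%, and in both 20% O2 libraries only for 34, 0.155%. With 5 kb to each side of a gene in place of 1 kb, the counts were 93 at 4% O2 only and 101 at 20% O2 only, so the excess at 4% O2 did not hold. The strongest gene-end regions called at 4% O2 only lay near the middle of their lists. The region at the ends of Lysmd1 and Scnm1, a splicing factor gene, at chr3:95133726-95134049 lay at the percentiles 50.3 and 59.1 of the 4% O2 lists. Tnpo3, which imports splicing factors into the nucleus, had 42.9 and 62.8, and Bcas2, a spliceosome component, had 41.0 and 65.2. H3K9ac was called in all 4 libraries at these 3. The region of Unc13d and Wbp2 and that of Shcbp1 followed, with 40.4 and 47.9 and with 39.7 and 53.5. H3K9ac was called in 2 libraries at Unc13d and in 0 at Shcbp1. CTCF was called at each of these gene-end regions, in 2 libraries at Tnpo3 and in all 4 at the others.

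Among gene-end regions called at 20% O2 only, that of Csmd3, a large membrane protein gene, had percentiles of 57.0 and 68.9 of the 20% O2 lists at chr15:48792774-48793100. Ramp3, which modifies calcitonin receptors, had 48.1 and 57.0. The 2410004P03Rik region chr12:17011575-17012272 had 36.2 and 74.0, Etv3l had 35.5 and 67.1 and Zfat 34.3 and 35.8. Zfat is not among the 34 genes, since the count by gene takes in every call at either end, and the 4% O2 libraries had one nearby. CTCF was called at all 5 of these and H3K9ac at Zfat alone. At Kdm3b, a histone H3K9 demethylase gene, a region at a gene end (chr18:34776827-34777051) was called at 20% O2 only, at percentiles of 7.2 and 40.1, while one inside the gene (chr18:34794956-34795292) was called at 4% O2 only, at 56.0 and 66.1.

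Away from gene ends, the strongest regions of 4% O2 only lay inside Bfsp2, a lens filament gene, at percentiles of 58.4 and 58.3, and inside Tipin, a replication fork protein gene, at 57.6 and 73.9. They were followed by regions inside Telo2, Kdm3b and Coro7. Of these 5, the region in Coro7 alone held H3K9ac, in 1 library, unlike the 71.3% of all regions of 4% O2 only, and CTCF was called in all 4 libraries at each but the one in Bfsp2, which had none. Those of 20% O2 only included regions 111 kb from Ccng1 (66.4 and 68.2) and 1.69 kb from Atp10b (65.3 and 73.4), both on chromosome 11, one inside Igfbp3, a binding protein of insulin-like growth factors, and one 104 kb from AI429214. None of the regions of 20% O2 only named here held H3K9ac, and CTCF was called in 3 or 4 libraries at each.

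Ribosomal protein genes, which build the translation machinery, had gene-end regions higher at 4% O2 and none lower. RAD21 was called at a gene end of 30 and 41 of 84 genes at 4% O2, against 13 and 36 at 20% O2. Over all 21887 genes the numbers were 4274 and 6634 at 4% O2, against 2765 and 6478 at 20% O2, in the same order. Of their 14 regions called in all 4 libraries, 8 ranked higher at 4% O2 and 0 lower, with median differences of 25.63 and 12.48 points, beside 23.1% higher and 8.39% lower of the 2419 gene-end regions and their medians of 3.42 and 4.51. With 5 kb to each side, 18 of 39 were higher and 0 lower, with medians of 18.66 and 9.68. Rpl27 had ranks of 37.2 and 53.3 at 4% O2, against 2.4 and 11.6 at 20% O2, and Rpl36 had 74.6 and 73.0 at 4% O2 against 48.8 and 49.2 at 20% O2. Rps4x, on chromosome X, had 0.2 and 17.7 at 4% O2 against 2.2 and 6.4 at 20% O2, and Rpl22 had 55.8 and 71.8 at 4% O2 against 61.1 and 58.3 at 20% O2, so these overlapped. The region of Rpl32 was called at 4% O2 only, at percentiles of 21.8 and 27.4, and a region at Rpl13 likewise, at 20.1 and 46.1. By gene, Rpl32 is among the 102 genes called at 4% O2 only and Rpl13 is not.

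The list of oxidative phosphorylation genes held subunits of the respiratory chain and of ATP synthase and some assembly factors. Of its 15 shared regions 5 were higher and 1 lower, beside the same 23.1% and 8.39% of all gene-end regions. Their medians were 20.1 and 5.92 points in rounds 1 and 2. With 5 kb to each side, 16 of 52 were higher and 3 lower, and the median of the mean difference over rounds was 7.34 points, against 15.46 with 1 kb. Cox5a, a subunit of cytochrome oxidase, ranked at 85 and 81.9 at 4% O2, against 48.9 and 53.1 at 20% O2. Ndufv1, of complex I, had 68.4 and 64.3 at 4% O2 against 30.5 and 43.0 at 20% O2, and Ndufs8 had 39.6 and 49.4 at 4% O2 against 18.3 and 34.7 at 20% O2. Ndufa6 was the one lower, at 47.0 and 47.4 at 4% O2 against 72.0 and 49.7 at 20% O2. Ndufb7 had a region of 4% O2 only, at percentiles of 23.0 and 38.3.

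**Figure D5:**
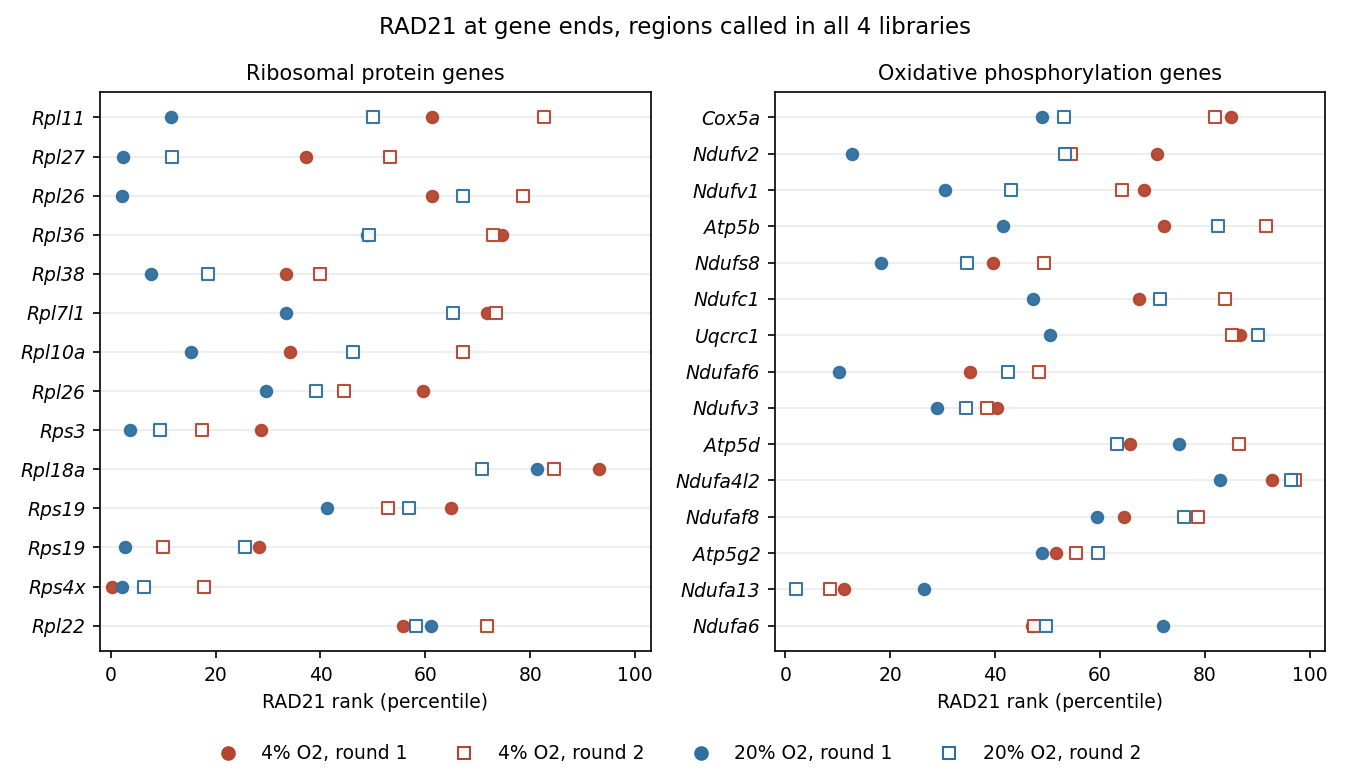
RAD21 score rank (x axis, percentile) at gene-end regions of ribosomal protein genes (left) and oxidative phosphorylation genes (right) called in all 4 libraries, with 4% O2 in red and 20% O2 in blue, round 1 as filled circles and round 2 as open squares. Of the 14 ribosomal regions 8 have both red points right of both blue ones, and of the 15 regions on the right 5 do and 1 has the reverse.

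HIF targets and glycolysis genes, the classical response to low oxygen, had gene-end regions in both directions. RAD21 was called at 14 and 25 of 44 genes at 4% O2, against 8 and 23 at 20% O2, the order seen over all genes. Of 10 shared regions 1 ranked higher and 2 lower, beside 23.1% higher and 8.39% lower of all gene-end regions. Their medians were -1.4 and 3.13 points in rounds 1 and 2. Pkm, pyruvate kinase, was the higher one, at 63.9 and 51.0 at 4% O2 against 30 and 46.8 at 20% O2. Eno2, the neuronal enolase, had 62.5 and 63.0 at 4% O2 against 94.3 and 55.2 at 20% O2. At Ddit4, an inhibitor of mTORC1 signalling induced by hypoxia, the region chr10:59952557-59952876 was called at 4% O2 only, at percentiles of 14.9 and 51.5, with H3K9ac in all 4 libraries and CTCF in none. Ddit4 is not among the 102 genes called at 4% O2 only, since the count by gene takes in every call at either end. The 3 shared regions of HIF subunits and oxygen sensors and the 5 of CTCF and cohesin genes included 0 without overlap between levels.

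Other lists had few shared regions, and their counts stand beside 23.1% higher and 8.39% lower over all gene-end regions. Of 15 at clustered protocadherin genes, whose promoters are chosen by CTCF and cohesin loops, 3 were higher, a share near that of all gene-end regions, and 0 lower, with medians of 7.73 and 1.25 points. Pcdha8 was the largest, at 44.3 and 19.9 at 4% O2 against 12.7 and 8.8 at 20% O2. Both regions of the unfolded protein response were higher, and with 5 kb to each side 5 of 13 were higher and 2 lower. Ern1, the stress sensor IRE1, had 56.5 and 49.7 at 4% O2 against 23.0 and 3.6 at 20% O2, and Trib3, a stress pseudokinase, had 60.6 and 51.5 at 4% O2 against 40.2 and 22.6 at 20% O2. Of 11 regions at sympathetic and neuroblast genes 3 were higher and 1 lower, and Gata2, a transcription factor of the lineage, had 29.1 and 49.2 at 4% O2 against 18.5 and 28.2 at 20% O2. Among single members, Mvd of cholesterol synthesis had 70.0 and 66.2 at 4% O2 against 30.5 and 37.5 at 20% O2, the neuronal tubulin Tubb3 61.8 and 51.1 at 4% O2 against 10.3 and 34.1 at 20% O2, and the demethylase Kdm6b 50.2 and 65.3 at 4% O2 against 38.9 and 46.3 at 20% O2.

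Immediate early genes had 1 of 7 regions higher, and nitric oxide signalling, imprinted and Hox genes had 0 of 4, 0 of 3 and 0 of 3 without overlap between levels. In the cell cycle list Ccna2, cyclin A, was higher, at 22.8 and 36.8 at 4% O2 against 15.3 and 21.9 at 20% O2, and 2 of 3 regions were lower, among them Mcm5, a replicative helicase subunit, at 85.4 and 84.2 at 4% O2 against 94.1 and 92.0 at 20% O2. Markers of other cell types had 5 shared regions in all. Among these the region of the macrophage gene Spi1 was lower, by under 1 point, at 99.0 and 99.7 at 4% O2 against 99.9 and 99.7 at 20% O2.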

How the data were processed

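The members and lists were chosen with earlier results of these data known. The genome build mm10 and the tools BWA, Picard, MACS2 and SICER are named, without versions or settings, per the submitters' processing notes. RAD21, CTCF and H3K9ac peaks were called with MACS2 for each library separately, per the file headers, with the input of its O2 level as background, per the lists' names. The score column of these deposited lists has no name and was read as −log10 q from its values, whose lowest is 2.0. POLR2 islands were called with SICER, and their read counts, as deposited, were used only for position. RAD21, H3K9ac and POLR2 lists of a level and round used the same input, and in round 2 the CTCF lists used it too. The read depth behind the lists is unknown, so no counting interval is given, and scores depend on depth.

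Peaks of the 4 RAD21 lists that overlapped by 1 bp or more were merged into regions, and ranks used the highest score in each region called in all 4 libraries. Gene ends were either end of 21887 RefSeq protein-coding genes (GRCm38.p6) with 1 kb to each side. Promoter windows ran from 250 bases before to 50 after each start. Named regions were the 5 of highest mean rank, the 5 of largest mean rank difference each way without overlap between levels, and the 5 of each O2-specific kind with the highest smaller percentile in their own lists, anywhere and at gene ends. For each gene list, members with an O2-specific gene-end region and the largest difference each way were named. A few further ribosomal and oxidative phosphorylation genes, and Gapdh and Adm, were chosen after their values were seen. A few regions that this rule names are not reported here. Levels were compared with a two-sided exact permutation test over 2 against 2 libraries, and over features by counts. Same-numbered libraries share a round, so differences are also given within rounds. Alternatives were a score minimum of 5 or 10, lists of equal length, a stricter overlap, the other summaries and windows given under the dependence on processing, and each library left out. The merging was tested on simulated lists. Python 3.11.15, numpy 2.4.6, pandas 2.3.3, scipy 1.17.1 and matplotlib 3.10.9 were used.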

Additional observations from a re-analysis of the deposited data

How the results depend on the processing

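Of 143 alternative values, 95 kept their direction and, for values without a test, moved by less than a spread (counts by less than 1.5 times), 42 moved further and 6 turned. In some rank classes the spread exceeded the median difference itself, so a value could shrink to almost nothing and still count as kept. This held at gene ends (5.87 against 4.48), with H3K9ac in all 4 libraries (5.87 against 4.23) or none (3.72 against -3.43) and in the gene-poorest class (4.75 against -4.18). It did not on chromosome X, in the gene-richest class or outside genes without H3K9ac. The spread was taken between libraries or rounds, except for the H3K9ac and CTCF differences between regions called at 1 level only. For those H3K9ac and CTCF differences it came from binomial intervals over regions (3.14 and 3.31 percentage points), which are not replicates. Regions of 4% O2 only numbered 426 at scores of at least 10, 1551 when joined by stricter overlap, and 1035 to 21353 with 1 library left out; regions of 20% O2 only numbered 1610 to 19862 with 1 library left out. With the replicate block, that is within rounds 1 and 2, there were 15764 and 21662 of 4% O2 only and 2899 and 23353 of 20% O2 only. The H3K9ac difference between them (67.9 percentage points) was 56.9 at scores of at least 10, 62.0 with equal lists, 61.4 with stricter overlap, 57.9 and 11.1 within rounds and 26.9 to 66.4 with 1 library left out. The CTCF difference (-40.3 points) was -33.7 and -8.21 at scores of at least 5 and 10, -7.97 with equal lists, -27.7 with stricter overlap, -26.4 and -4.4 within rounds and -54.8 to 5.55 with 1 library left out, turning without the 20% O2 library of round 1. Within round 2 the ratio of peaks was 0.971 and the difference in CTCF share was 0.134 points (-7.24 over both rounds). With 1 library left out, 30.6% to 37.0% of shared regions ranked higher and 29.7% to 37.8% lower; fewer libraries have to be ordered then. With 5 kb to each side of genes, 6786 genes had RAD21 in all 4 libraries, 93 at 4% O2 only (102 with 1 kb) and 101 at 20% O2 only (34 with 1 kb), and the median differences of imprinted genes (-0.14), sympathetic and neuroblast genes (-0.08) and cell cycle genes (0.02) turned. Where not named, the cause was not tested. Median rank differences at gene ends, with and without H3K9ac, on chromosome X and in the gene-poorest and gene-richest classes kept their sign under every alternative run, but not their size: with 1 library left out they ran from 1.78 to 7.54 at gene ends, 1.06 to 7.14 with H3K9ac in all 4 libraries, -6.03 to -1.58 without H3K9ac, -11.07 to -5.29 on chromosome X, -6.78 to -1.76 in the gene-poorest and 2.47 to 8.09 in the gene-richest class. Alternatives for the H3K9ac and CTCF differences and the rank classes were chosen after seeing the data.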

Other observations

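Seen from CTCF, RAD21 of the same level and round overlapped 28.24% and 54.04% of CTCF peaks at 4% O2, against 21.35% and 61.39% at 20% O2 in rounds 1 and 2 (exact permutation p = 1.0). The rounds differed here far more than the O2 levels, and the CTCF lists of round 1 held 124797 peaks at 4% O2 and 126873 at 20% O2, beside 81759 and 73200 in round 2.

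RAD21 was called in both round 2 libraries and in neither round 1 library at 11765 regions, while the reverse held at 142. At the round 2 regions a CTCF summit lay within 100 bp of 34.6% of RAD21 summits at 4% O2 and of 34.9% at 20% O2. At regions called in all 4 libraries these shares were 76.9% at 4% O2 and 77.4% at 20% O2. POLR2 of any library overlapped 49.69% and 54.23% of RAD21 peaks at 4% O2 and 38.36% and 49.57% at 20% O2, without overlap between the levels (exact permutation p = 0.333, the smallest possible). POLR2 of the same level and round overlapped 37.16% and 44.41% at 4% O2 and 11.97% and 43.37% at 20% O2, and the levels overlapped (exact permutation p = 0.667). The POLR2 list behind the 11.97% was the sparsest, with overlap at 15.9% of all RAD21 regions.

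Regions called in all 4 libraries that ranked higher at 4% O2 had a median width of 893 bp, and those that ranked lower one of 633.5 bp. H3K9ac was called in at least 1 library at 61.1% of the higher and 28.3% of the lower regions. Their median distance from a gene end was 7.96 kb for the higher and 19.1 kb for the lower regions. Splitting gene-end regions by H3K9ac, the 1501 with it in all 4 libraries had median rank differences of 5.14 and 5.35 points, and the 507 without it had -1.6 and 2.62.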
